A study of Mus musculus with 4 samples.

Results

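Nuclear genes of oxidative phosphorylation were followed in splenic B cells of 2 mutant mouse lines, at rest and after activation with LPS. The members are all gene names in the deposited gene count table that begin with Nduf, Sdh (a to d), Uqcr, Cox4 to Cox8 or Atp5, without names of pseudogenes, and this rule uses no measured value. It gave 92 of 41342 named genes, of which 81 encode structural subunits and 11 do not (assembly factors, a supercomplex factor and the NDUFA4-like gene Ndufa4l2). Of the 92, 84 had a mean of at least 50 reads over the libraries and could be compared, and 8 did not.

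The cells were CD43- splenocytes, that is, spleen cells freed of those that carry CD43, from 129 mice with 1 of 2 deletions in the IgH 3' regulatory region (3'RR), a group of enhancers downstream of the heavy-chain constant genes. ΔleftPAL mice lack hs3a, hs1,2 and the IRIS (the inverted repeats between these enhancers). ΔIRIS mice lack the IRIS and carry hs3a in the inverted orientation, but keep every enhancer. Both lines thus lack the IRIS, and a library of mice without any deletion was not analysed here. For each line there was 1 library of freshly isolated resting cells and 1 of cells kept in culture with LPS (5 μg per ml) during 48 h, where LPS is a cell-wall component of bacteria that makes B cells grow and divide. The methods describe 4 mice per genotype and 2 RNA pools of 2 samples each, whereas a figure legend describes 2 experiments with 3 mice aged 8 to 12 weeks. The number of animals behind a library is thus not certain, and no difference has a replicate check. A culture without LPS was not analysed here, so LPS and 48 h of culture cannot be told apart.

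Oxidative phosphorylation takes place in the inner mitochondrial membrane. Complex I (NADH dehydrogenase) and complex II (succinate dehydrogenase) pass electrons to ubiquinone, complex III (cytochrome bc1) passes them to cytochrome c and complex IV (cytochrome c oxidase) to oxygen, and complex V (ATP synthase) uses the proton gradient so built to make ATP. Most subunits are encoded in the nucleus, whereas a small hydrophobic core is encoded in the mitochondrial genome. Resting B cells are small cells with a low energy demand, and activated B cells enlarge, divide and can become antibody-secreting cells.

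Named genes held 23615496 reads at rest and 27777790 after LPS in ΔleftPAL cells, and 28707002 and 29776108 in ΔIRIS cells. Levels are given as reads or as CPM (reads scaled to a common library size by TMM, in which 3 reads correspond to 0.102 to 0.123 CPM), and 4 values in a row are always in the order just given. Ratios are log2 values of CPM plus 0.5. The 95% exact Clopper-Pearson intervals beside them come from reads and scaled library sizes without the added 0.5, so for low genes they lie off-centre. They cover counting error only, so that they compare 2 libraries and not the conditions. All 6 B-cell markers were detected in every library, with summed levels of 3855, 2303, 3269 and 2464 CPM. Markers of other cells moved with LPS. Those of erythroid cells summed to 41305 and 28663 CPM at rest against 58.2 and 124 CPM after LPS, with all 6 detected, those of myeloid cells to 310 and 415 against 8.31 and 17.5 CPM, and those of T cells to 19.3 and 25.2 against 0.111 and 0.0341 CPM. After LPS, 2 of 6 myeloid markers were at 0 reads in both genotypes, S100a8 among them, and of 5 T-cell markers 3 were at 0 in ΔleftPAL and 4 in ΔIRIS cells, Cd3d among them. The 3 markers of natural killer cells summed to 6.35 and 3.96 CPM at rest against 1.04 and 0.648 CPM after LPS. The 6 plasma-cell markers summed to 625, 1815, 897 and 1279 CPM. Of these Prdm1, Xbp1, Igj and Mzb1 were higher after LPS in both genotypes, whereas Irf4 (285, 458, 604 and 392 CPM) and Sdc1 (12.7, 17.9, 17.9 and 13.2 CPM) were higher in ΔleftPAL and lower in ΔIRIS cells. The part of these cells in the values below was not tested, and in bulk RNA a change in the number of cells of a type and a change in RNA per cell cannot be told apart.

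Reads of the 92 genes made up 0.383%, 0.913%, 0.366% and 0.948% of each library. Their summed level was 3702, 9414, 3617 and 9633 CPM, which is 2.54-fold higher after LPS in ΔleftPAL cells and 2.66-fold higher in ΔIRIS cells. The resting libraries of both genotypes lay close together and far below the LPS libraries. Of the 84 members compared, 61 (72.6%) were at least 2-fold higher after LPS in ΔleftPAL cells, against 20.1% of all 11286 genes with the same minimum of reads. In ΔIRIS cells there were 64 (76.2%), against 21.6% of all genes. In both genotypes at once, 58 members (69%) passed 2-fold, against 17.3% of all genes. Only 1 member was at least 2-fold lower in both, against 13.1% of all genes. With genes of a mean of at least 1000 reads alone, 43 of 58 members (74.1%) were at least 2-fold higher in both genotypes, against 22.9% of 4241 genes.

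The median log2 ratio of the members was 1.23 in ΔleftPAL cells (quartiles 0.96 and 1.61) and 1.33 in ΔIRIS cells (quartiles 1.05 and 1.68), where that of all genes was 0.12 and 0.13. The members thus formed a narrow group around a 2.35- and 2.51-fold higher level, with 82 of 84 (97.6%) above 0 in both genotypes, against 49.1% of all genes. The whole counting interval lay above 0 in both genotypes for 81 members (96.4%, against 42.5% of all genes) and above 2-fold in both for 53 (63.1%, against 14.2%).

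**Figure D1:**
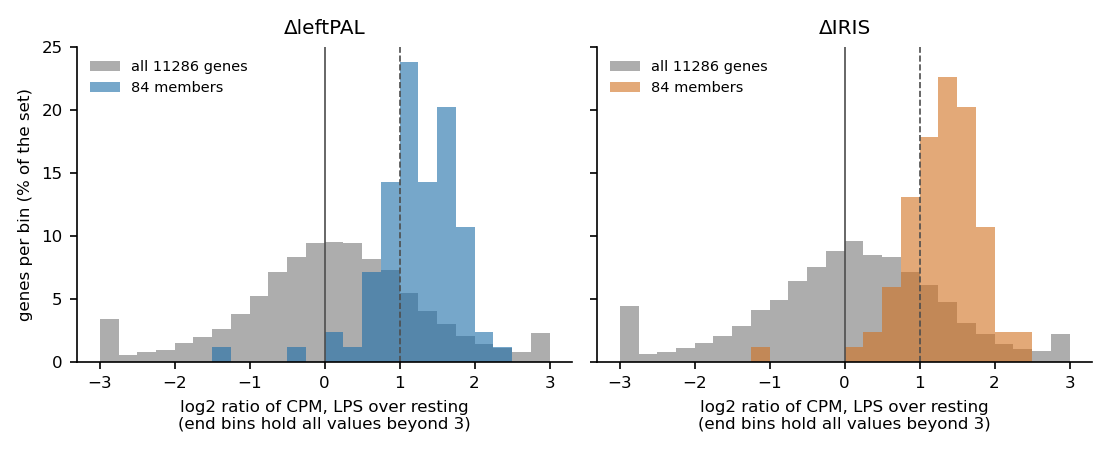
Log2 ratio of LPS over resting CPM (x axis, bins of 0.25) against the percentage of genes in each bin (y axis) for all 11286 genes (grey) and the 84 members (colour), in ΔleftPAL and ΔIRIS cells, 1 library per state. The solid line marks no difference and the dashed line 2-fold. The members sit in a narrow group around their medians of 1.23 and 1.33, and all genes around 0.12 and 0.13.

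Both genotypes ranked the members alike. Over the 84 members, which share libraries within each genotype but none between the genotypes, the log2 ratios of ΔleftPAL and ΔIRIS cells had a Pearson r of 0.947 and a Spearman rho of 0.938, beside a Pearson r of 0.932 over all genes. For 73 members both log2 ratios lay within 0.25 of each other, and 53 of 84 were larger in ΔIRIS cells, with a median difference of 0.06. No share of all genes is given for these counts, so they do not set the members apart from other genes.

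**Figure D2:**
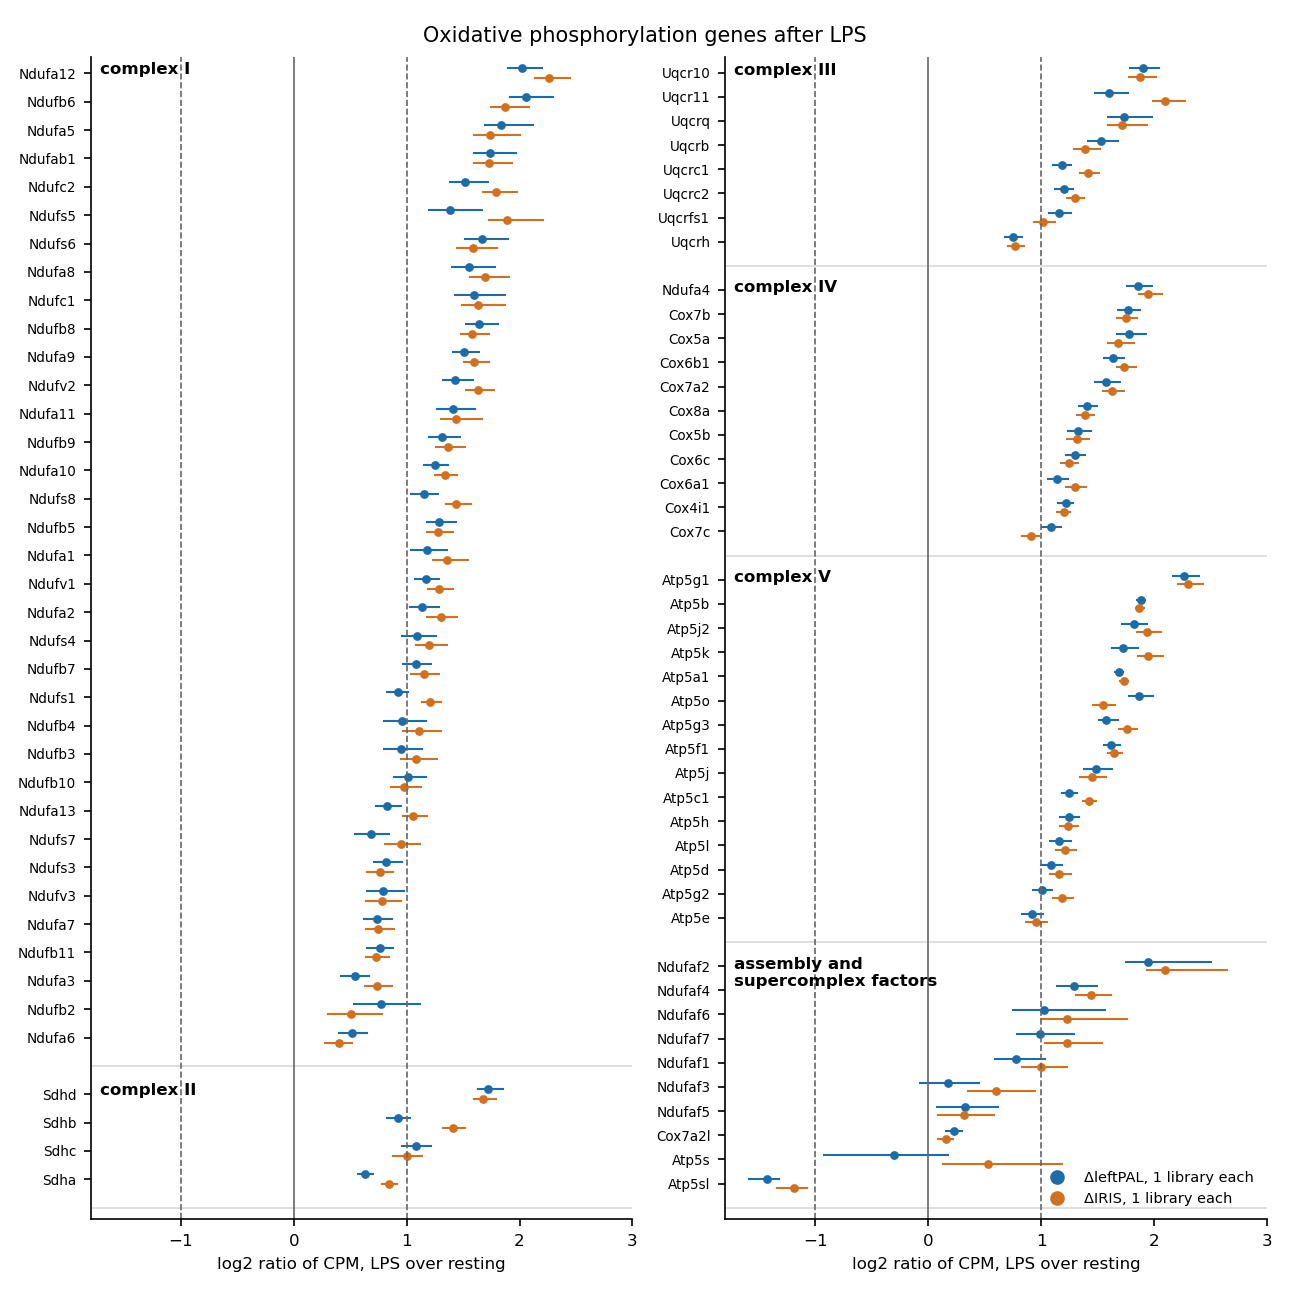
Log2 ratio of LPS over resting CPM (x axis) for 83 of the 84 members, grouped by complex and ordered by the mean of both genotypes. Points are the ratios of 1 library over 1 library, lines their 95% counting intervals, the solid line no difference and the dashed lines 2-fold. Most points of complexes III, IV and V lie right of 2-fold, while several assembly and supercomplex factors lie near 0 and Atp5sl lies left of 2-fold lower.

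Complex I, the largest of the complexes, had 36 members compared. All 36 were above 0 in both genotypes, 23 were at least 2-fold higher in both (15 with TPM), and the median log2 ratios were 1.17 and 1.29. Ndufa12, an accessory subunit of the matrix arm, had the largest mean ratio by gene counts, with 449, 2051, 419 and 2072 reads (18.4, 76.1, 14.4 and 70.7 CPM). Both LPS libraries were far above both resting ones, by log2 ratios of 2.02 (interval 1.90 to 2.20) and 2.26 (2.14 to 2.45). Ndufb6, an accessory subunit of the membrane arm, followed with 284, 1348, 385 and 1460 reads and log2 ratios of 2.06 and 1.87, the larger of these genes in ΔleftPAL cells. Their order by the mean turned with kallisto's counts, which gave 1.71 and 2.27 for Ndufa12 and 2.18 and 2.04 for Ndufb6, and the gene counts of Ndufa12 were 1.24 to 1.83 times those of kallisto. Ndufa5, which sits in the matrix arm, had 216, 890, 266 and 932 reads, 3.59- and 3.35-fold higher after LPS.

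The core subunits of complex I, which carry the redox centres, were in the middle of the range, and 4 of 7 passed 2-fold in both genotypes. Ndufv1, which binds the flavin that accepts electrons from NADH, had 39.9, 90.4, 34.8 and 85.5 CPM, or 2.25- and 2.44-fold more after LPS, but log2 ratios of 0.66 and 0.79 with TPM. Ndufs1, an iron-sulphur protein, had 60.2, 114, 57.7 and 134 CPM and passed 2-fold in ΔIRIS cells (2.32-fold) and not in ΔleftPAL cells (1.89-fold). Its counting intervals of 0.83 to 1.01 and 1.14 to 1.30 did not overlap. In TPM Ndufs1 had 45.8, 66.1, 41.9 and 72.8 and passed 2-fold in neither genotype.

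At the low end of complex I stood Ndufa6, Ndufb2 and Ndufa3. Ndufa6, a small protein that holds the mitochondrial acyl carrier protein in the complex, had 874, 1384, 959 and 1278 reads and log2 ratios of 0.52 (0.40 to 0.65) and 0.40 (0.28 to 0.52). Its intervals overlap neither 0 nor those of Ndufa12. Ndufa3 had 34.2, 49.9, 30.9 and 52.1 CPM, with log2 ratios of 0.54 and 0.74. Ndufb2 had log2 ratios of 0.77 and 0.51 from 144, 281, 245 and 358 reads. Of the 84 members compared it is the only one for which the gene counts and kallisto's estimated counts differed by more than 0.5, since kallisto gave 394, 996, 432 and 1138 estimated counts and log2 ratios of 1.29 and 1.52. The gene counts held 0.282 to 0.567 of kallisto's counts for Ndufb2, so that its place at the low end depends on the way of counting.

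Within complex II the 4 genes did not move alike. Sdhd, a membrane anchor, had 893, 3284, 1303 and 4252 reads and log2 ratios of 1.72 (1.63 to 1.85) and 1.68 (1.60 to 1.79). Sdha, the flavoprotein that oxidises succinate and so also a tricarboxylic acid cycle enzyme, had 2962, 5069, 3184 and 5756 reads and log2 ratios of 0.63 (0.57 to 0.70) and 0.84 (0.78 to 0.91). With TPM values the ratios of Sdha were 0.00 and -0.10, so that even its direction depends on the measure. The ratio of Sdhd exceeded that of Sdha in both genotypes, with counting intervals that do not overlap. The iron-sulphur subunit Sdhb had 49.8, 95, 39.1 and 105 CPM, and its ratios of 0.92 (0.83 to 1.03) and 1.41 (1.32 to 1.52) differed between the genotypes by more than counting error. The other anchor, Sdhc, lay at 2-fold, with 28, 59.8, 25.1 and 50.7 CPM and log2 ratios of 1.08 and 1.00. Because the value of Sdhc in ΔIRIS cells was just under the limit, Sdhd was the 1 gene of complex II that passed in both genotypes by gene counts. With kallisto's counts 3 of the 4 passed, as Sdhb (1.06 and 1.57) and Sdhc (1.16 and 1.13) joined it. With TMM without immunoglobulin and mitochondrial genome genes 2 of the 4 passed.

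In complex III, 7 of 8 members were at least 2-fold higher in both genotypes, with medians of 1.36 and 1.41. Uqcr10, a small subunit, had 582, 2428, 688 and 2589 reads (3.73- and 3.68-fold), and the small subunit Uqcrq had 275, 1046, 342 and 1171 (3.34- and 3.3-fold). Uqcr11 had 517, 1756, 455 and 2012 reads, and its ratios of 1.60 (1.48 to 1.77) and 2.10 (1.99 to 2.28) did not overlap, with a lower resting value and a like LPS value in ΔIRIS cells. Of the core subunits, Uqcrc1 had 70.3, 161, 60.3 and 162 CPM (2.28- and 2.68-fold). The Rieske iron-sulphur protein Uqcrfs1 had 45.3, 102, 54 and 110 CPM (2.23- and 2.03-fold). Its call in ΔIRIS cells lies at the limit, with a log2 ratio of 0.98 with scaling by total counts and 0.97 with a prior of 5 CPM, and TPM gave 0.92 and 0.77. With TPM 4 of the 8 passed, as the calls of Uqcrc1, Uqcrc2 and Uqcrfs1 were lost. Uqcrh, the hinge protein that faces cytochrome c, was the member that did not pass, with 94.3, 159, 89.5 and 153 CPM (1.68- and 1.71-fold). It had the highest TPM of complex III in every library (338, 483, 309 and 453).

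Nuclear subunits of complex IV numbered 11 compared members, of which 10 were at least 2-fold higher in both genotypes, with medians of 1.41 and 1.39. Ndufa4, first named as a complex I protein and now counted to complex IV, led with 881, 3551, 977 and 3859 reads, 3.62- and 3.87-fold higher. Cox7b had 44.4, 152, 44.9 and 152 CPM (3.4- and 3.36-fold), nearly the same in both genotypes. Cox5a had 25.2, 87.6, 26.6 and 86.6 CPM (3.43- and 3.21-fold). Cox4i1, the largest nuclear subunit, stood lower in the range, with 110, 255, 113 and 260 CPM (2.32- and 2.3-fold). Cox7c was the exception, at 1579, 3710, 2208 and 4182 reads, with log2 ratios of 1.09 (1.01 to 1.18) and 0.91 (0.83 to 0.98). Its call depends on the measure: the ratios were 1.28 and 1.16 with kallisto's counts, 0.94 and 0.80 with TPM, and 0.99 and 0.86 with scaling by total counts. With TPM 7 of the 11 passed, and Cox4i1 (0.92 and 0.88), Cox5b (0.95 and 1.03) and Cox6a1 (0.91 and 1.08) were lost.

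Several subunits of complex IV have a second gene that is used in muscle, lung, brain or testis. In these libraries the common gene carried nearly all reads. Cox4i2, the partner of Cox4i1, had 0, 5, 4 and 7 reads, and the heart and muscle gene Cox7a1 had 5, 13, 2 and 23 reads beside 885, 2945, 1206 and 3798 for Cox7a2. Cox6a2 had 1, 4, 5 and 3 reads against 1289, 3155, 1299 and 3248 for Cox6a1, and Cox6b2 had 6, 18, 13 and 10 against 1286, 4445, 1417 and 4817 for Cox6b1. Thus none of these second genes reached 1 CPM. Cox7b2, Cox8b and Cox8c had 0 reads in every library, which allows up to 0.102 to 0.123 CPM, whereas Cox8a had 1797, 5299, 1970 and 5216 reads. Ndufa4l2, the relative of Ndufa4 known for its response to hypoxia, had 0, 0, 1 and 0 reads. Cox6a1, Cox6b1, Cox7a2 and Cox8a were all at least 2-fold higher after LPS in both genotypes, by 2.21-fold (Cox6a1, ΔleftPAL, whose call TPM did not keep) to 3.35-fold (Cox6b1, ΔIRIS).

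Complex V had the highest medians by gene counts, 1.58 and 1.55, although complex IV was higher in TPM (1.27 against 1.23 and 1.31 against 1.18), and 14 of its 15 members were at least 2-fold higher in both genotypes (12 with scaling by total counts and 11 with TPM). The catalytic subunit β, encoded by Atp5b, had 7955, 32453, 9930 and 36722 reads, or 326, 1205, 342 and 1253 CPM. Its log2 ratios were 1.89 (1.85 to 1.92) and 1.87 (1.84 to 1.91), which did not differ between the genotypes beyond counting error. Subunit α, encoded by Atp5a1, had 320, 1035, 329 and 1098 CPM (3.23- and 3.33-fold). Reads of Atp5a1 and Atp5b together were 17.5%, 23.8%, 18.6% and 24.4% of all member reads. The 7 genes of the outer stalk and the membrane part apart from the c ring all passed 2-fold in both genotypes by gene counts, whereas Atp5l did not with TPM (0.91 and 0.96). By the mean of both genotypes the highest was Atp5j2, the f subunit, with 859, 3375, 996 and 3894 reads (3.53- and 3.84-fold). Atp5e, the ε subunit at the foot of the central stalk, was the member that did not pass, with 53.6, 102, 54.6 and 106 CPM (1.89- and 1.94-fold). Its log2 ratios of 0.92 and 0.96 became 1.03 and 1.12 with kallisto's counts, 0.66 and 0.79 with TPM, and 0.82 and 0.91 with scaling by total counts.

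The c ring of complex V, which turns as protons pass, is built from 1 mature protein that is encoded by 3 genes differing in their targeting sequences. Atp5g1 lies on the minus strand of chromosome 11 (mm10, chr11:96068852-96075670), Atp5g2 on the minus strand of chromosome 15 (chr15:102662864-102672352) and Atp5g3 on the minus strand of chromosome 2 (chr2:73908447-73911326). Atp5g1 had 698, 3753, 717 and 3615 reads, and its log2 ratios of 2.27 and 2.30, with counting intervals that begin at 2.17 and 2.21, were the largest of all members by their mean. Atp5g3 had 1385, 4607, 1579 and 5436 reads and ratios of 1.58 (1.51 to 1.68) and 1.76 (1.69 to 1.85). Atp5g2 had 1788, 3982, 1676 and 3863 reads and ratios of 1.01 (0.93 to 1.10) and 1.19 (1.11 to 1.28). Its call in ΔleftPAL cells lies at the limit and was lost with total counts (0.92), DESeq2 size factors (0.98), a prior of 5 CPM (0.97) and TPM (0.81), and TPM gave 0.86 in ΔIRIS cells. Every LPS library exceeded every resting library for each gene, and the order Atp5g1, Atp5g3, Atp5g2 of the ratios held in both genotypes beyond counting error. By length-corrected level (TPM), Atp5g1 made up 15.9% of the c-subunit RNA at rest and 29.3% after LPS in ΔleftPAL cells, and 15.5% and 26.8% in ΔIRIS cells. The share of Atp5g2 went from 54.1% to 38.1% and from 52.8% to 36%, and that of Atp5g3 from 30% to 32.5% and from 31.8% to 37.2%.

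**Figure D3:**
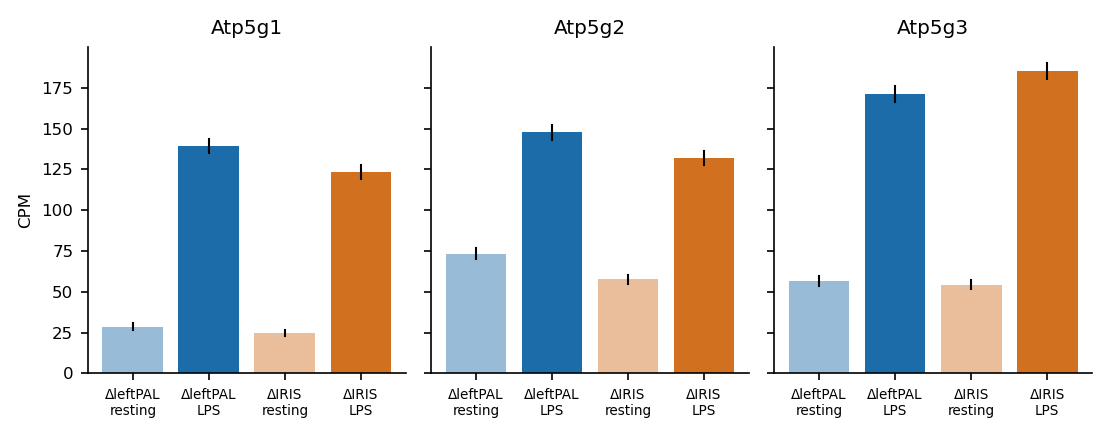
Level in CPM (y axis, from 0) of the 3 genes for the c subunit of ATP synthase in each of the 4 libraries (x axis). Bars are single libraries and black lines 95% exact Poisson intervals of the counts. CPM is not corrected for length, so bars are to be compared within a gene. Atp5g1 goes from 28.6 to 139 CPM and from 24.7 to 123 CPM, and Atp5g2 from 73.2 to 148 and from 57.7 to 132 CPM.

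The start regions of these 3 genes are shown because 1 protein is made from genes with unlike ratios, together with those of Ndufa12 and Ndufa6, the complex I members with the largest and the smallest mean ratio by gene counts, and of Cox7a2l, a member whose level barely differed. Each window is from RefSeq on GRCm38.p6 and runs 5′ to 3′ on the gene's strand, from 250 bases before to 50 bases after the annotated start. Capitals mark each match, on either strand, to 8 short strings named for factors that can bind them. The string for NRF1 was GCATGCGC, the string for ETS factors was CCGGAAG, the string for YY1 was ATGGCGGC, and the string for SP1 was GGGCGG. For NFY the letters searched were CCAAT, for the E-box they were CACGTG, for ERR receptors they were AAGGTCA, and for the TATA box they were TATAAA. None of these strings contains another, but matches can touch or overlap.
Atp5g1 promoter, chr11:96075582-96075881, minus strand: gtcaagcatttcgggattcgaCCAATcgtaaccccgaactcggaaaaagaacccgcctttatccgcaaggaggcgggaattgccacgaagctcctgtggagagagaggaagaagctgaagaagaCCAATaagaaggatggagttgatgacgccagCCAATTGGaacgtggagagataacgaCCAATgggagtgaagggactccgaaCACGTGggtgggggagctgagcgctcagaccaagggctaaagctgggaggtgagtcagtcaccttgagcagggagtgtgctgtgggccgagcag
Atp5g2 promoter, chr15:102670998-102671297, minus strand: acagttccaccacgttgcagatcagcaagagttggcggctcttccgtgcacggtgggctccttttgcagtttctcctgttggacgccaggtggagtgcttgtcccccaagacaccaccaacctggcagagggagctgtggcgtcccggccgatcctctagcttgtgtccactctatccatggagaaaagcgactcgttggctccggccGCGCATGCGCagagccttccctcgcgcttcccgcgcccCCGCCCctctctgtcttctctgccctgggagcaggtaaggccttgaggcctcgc
Atp5g3 promoter, chr2:73911277-73911576, minus strand: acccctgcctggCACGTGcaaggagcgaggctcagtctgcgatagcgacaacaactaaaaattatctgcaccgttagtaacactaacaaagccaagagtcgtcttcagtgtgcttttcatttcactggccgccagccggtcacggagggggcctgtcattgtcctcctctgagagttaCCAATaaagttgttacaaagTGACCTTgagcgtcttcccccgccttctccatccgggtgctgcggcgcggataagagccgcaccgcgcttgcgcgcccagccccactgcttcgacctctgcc
Ndufa12 promoter, chr10:94198785-94199084, plus strand: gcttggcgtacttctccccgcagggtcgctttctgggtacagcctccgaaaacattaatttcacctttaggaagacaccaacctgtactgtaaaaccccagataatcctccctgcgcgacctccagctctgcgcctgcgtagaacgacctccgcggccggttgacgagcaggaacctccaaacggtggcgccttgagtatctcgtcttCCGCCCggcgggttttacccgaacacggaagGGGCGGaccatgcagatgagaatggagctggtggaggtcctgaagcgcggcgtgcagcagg
Ndufa6 promoter, chr15:82354242-82354541, minus strand: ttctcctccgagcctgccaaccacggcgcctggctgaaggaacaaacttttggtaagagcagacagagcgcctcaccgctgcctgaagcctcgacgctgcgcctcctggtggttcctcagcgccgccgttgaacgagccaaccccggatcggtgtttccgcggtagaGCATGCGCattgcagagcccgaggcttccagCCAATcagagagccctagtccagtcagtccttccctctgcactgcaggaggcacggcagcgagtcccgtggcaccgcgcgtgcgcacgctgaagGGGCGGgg
Cox7a2l promoter, chr17:83514284-83514583, minus strand: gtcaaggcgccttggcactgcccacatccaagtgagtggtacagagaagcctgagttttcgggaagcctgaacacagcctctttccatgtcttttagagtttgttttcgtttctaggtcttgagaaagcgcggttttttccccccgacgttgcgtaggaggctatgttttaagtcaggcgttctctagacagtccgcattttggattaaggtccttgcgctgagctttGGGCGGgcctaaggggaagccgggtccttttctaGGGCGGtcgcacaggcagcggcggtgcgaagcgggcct
In the window of Atp5g1 there were 5 matches to the NFY string, 1 of them overlapping another on the opposite strand, and 1 E-box. Atp5g2 held the NRF1 string on both strands in an overlapping pair (bases 209 to 218 of the window) and 1 SP1 string, and its RefSeq start lies 1305 bases from the 5′ end of the gene in the count table. Atp5g3 held 1 NFY string, 1 E-box and 1 ERR string. Ndufa12 held 2 SP1 strings, Ndufa6 had 1 NRF1, 1 SP1 and 1 NFY string, and Cox7a2l had 2 SP1 strings. Such matches describe the letters only.

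A window was found for 69 of the 84 members compared. The NRF1 string occurred in 12 of them (17.4%), among them Atp5g2, Ndufa6, Ndufa11, Sdhb, Cox6a1, Uqcr11 and Uqcrc1, against 6.73% of 7968 compared genes with a window and 2.71% of all 32851 windows. The ERR string occurred in 8 (11.6%), among them Atp5g3, Atp5e, Sdhd and Ndufb2, against 3.64% of compared genes. The SP1 string was found in 43.5% of the members and 69.8% of compared genes. For the ETS string the shares were 24.6% and 22.5%, for YY1 8.7% and 6.45%, for NFY 42% and 43.6%, for the E-box 7.25% and 12.4% and for the TATA box 7.25% and 8.07%. These shares were not tested. The median of the mean log2 ratio was 1.26 for members with the NRF1 string and 1.30 for those without it. With the other strings it ran from 0.81 (TATA box, 5 members, 1.33 without) to 1.41 (ERR, 8 members, 1.30 without).

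The 10 assembly and supercomplex factors compared had medians of 0.56 and 0.80, and 3 (30%) were at least 2-fold higher in both genotypes, against 17.3% of all genes. Of the 74 structural subunits 55 passed, and their medians were 1.27 and 1.38. The 7 Ndufaf genes alone, which held the 3 called factors, had medians of 0.99 and 1.23, and the lower medians of all 10 came with Atp5s, Atp5sl and Cox7a2l. The highest was Ndufaf2, a relative of Ndufa12 that holds its place while complex I is being built. It had 71, 341, 81 and 398 reads and log2 ratios of 1.95 (1.75 to 2.51) and 2.10 (1.94 to 2.65), close to those of Ndufa12. Ndufaf4, which acts early in complex I assembly, had 347, 954, 471 and 1313 reads (2.44- and 2.71-fold). The third, Ndufaf6, had 71, 174, 82 and 214 reads, 2.04- and 2.35-fold higher after LPS. This call lies near the limit, since its log2 ratio in ΔleftPAL cells was 1.03, and 0.95 with scaling by total counts, and a prior of 5 CPM gave 0.54 and 0.65. Ndufaf5, an enzyme that modifies Ndufs7 during assembly, had 8.02, 10.2, 8.7 and 11 CPM and log2 ratios of 0.33 and 0.32. In TPM it had 11.4, 12, 12.5 and 12, so that its direction in ΔIRIS cells depends on the measure.

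Atp5sl, named for its likeness to a factor of ATP synthase and known to act in complex I assembly, was the only member at least 2-fold lower after LPS in both genotypes. Its reads numbered 1581 at rest and 637 after LPS in ΔleftPAL cells, and 1434 and 627 in ΔIRIS cells. Both LPS libraries lay under both resting ones, with log2 ratios of -1.43 (-1.59 to -1.32) and -1.19 (-1.34 to -1.07). Cox7a2l, which links complexes III and IV into supercomplexes, had 126, 148, 133 and 149 CPM and log2 ratios of 0.23 (0.16 to 0.30) and 0.16 (0.09 to 0.22). The sign of these small ratios turned with TPM values, which gave -0.01 and -0.10. Atp5s, a coupling factor of ATP synthase, had 63, 54, 51 and 81 reads, few enough that its log2 ratios of -0.30 and 0.53 had intervals from -0.92 to 0.18 and from 0.13 to 1.19.

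Levels of different genes can be set side by side only after correction for length, for which the TPM values within 1 library were used. In resting ΔleftPAL cells the median was 48 TPM for complex I, 53.8 for complex II, 83 for complex III, 179 for complex IV, 129 for complex V and 9.77 for the factors. After LPS these medians were 102, 96.3, 181, 444, 348 and 14.7 TPM. Resting ΔIRIS cells had medians of 42.2, 50.2, 71.8, 146, 132 and 8.16 TPM, and LPS-activated ΔIRIS cells 101, 97.8, 180, 452, 355 and 15.4 TPM. Complexes IV and V thus had higher median levels than complexes I and II in all 4 libraries, and the factors the lowest. In resting ΔleftPAL cells the range within complex IV was 64.9 TPM for Cox5a to 281 TPM for Cox8a, a span of 4.33-fold, while complex I spanned 31.4-fold, from Ndufa11 (7.99 TPM) to Ndufa3 (251 TPM). The gene at the top of complex V was Atp5b in every library, with 308, 873, 331 and 860 TPM. Among the factors, Cox7a2l was the exception in level, with 180, 178, 187 and 175 TPM.

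**Figure D4:**
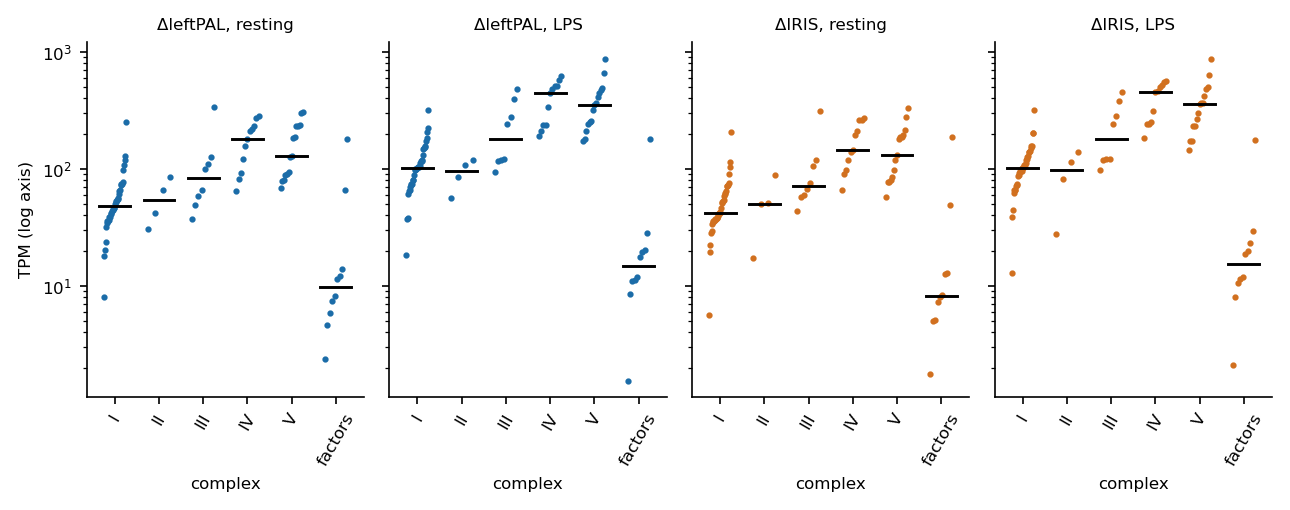
TPM (y axis, log axis) of each compared member in each library, by complex (x axis); points are genes and black lines medians. Complexes IV and V have the highest medians (179 and 129 TPM in resting ΔleftPAL cells, 444 and 348 TPM after LPS) and the assembly and supercomplex factors the lowest (9.77 and 14.7 TPM).

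Transcripts were compared by their share of a gene's kallisto counts. In 59 members with at least 500 estimated counts, no transcript's share of its gene's counts moved by 20 percentage points or more in the same direction between resting and LPS-activated cells of both genotypes. Smaller shifts are not covered by this limit. TPM departed from the counts for several members, among them Sdha (described above), Sdhc and Ndufa10. Sdhc had 30.6, 55.9, 17.2 and 27.6 TPM. Ndufa10, an accessory subunit of complex I, was 2.38- and 2.53-fold higher after LPS by gene counts. With TPM it had 43.8, 72.6, 53.3 and 71.8, and log2 ratios of 0.72 and 0.43. The cause of these departures was not tested.

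Between the genotypes the members differed little. At rest, 0 of 84 were at least 2-fold apart, against 2.85% of all genes, and after LPS 0 of 84, against 1.98%. With shares of all genes this small, a list of 84 can hardly show a difference from them. Log2 ratios of ΔIRIS over ΔleftPAL cells had medians of -0.04 at rest and 0.02 after LPS. Of the members, 68 (81%) had a log2 ratio within 0.25 of 0 at rest, against 57.2% of all genes, and 75 (89.3%) after LPS, against 72.6%. All genes are not matched to the members for depth, as 58 of 84 members but 4241 of 11286 genes had a mean of at least 1000 reads. Genes with that mean had quartiles of -0.12 and 0.23 at rest and of -0.07 and 0.16 after LPS. Those of the 84 members were -0.17 and 0.06, and -0.04 and 0.10. Counting intervals at rest lay above 0 for 11 members (13.1%, against 30.3% of all genes) and below 0 for 26 (31%, against 27%). After LPS they lay above 0 for 22 (26.2%, against 27.6%) and below 0 for 14 (16.7%, against 19.4%). Such differences are between these libraries and not between the genotypes.

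The resting and the LPS comparison share no library, but the methods describe cells taken before and after stimulation, so the libraries of a genotype may share animals and are not independent. The sign of the genotype difference was the same in both for 53 of 84 members (63.1%), against 56.2% of all genes, and the Pearson r between the differences was 0.494 over the members and 0.108 over all genes. By counting intervals, 12 members (14.3%) were lower in ΔIRIS cells in both states, against 7.35% of all genes, and 6 (7.14%) were higher, against 11.6%. Ndufa11, an accessory subunit of complex I, had 387, 1158, 327 and 920 reads, with log2 ratios of ΔIRIS over ΔleftPAL of -0.48 at rest and -0.45 after LPS. On the other side Sdhd had log2 ratios of 0.29 and 0.25. Ndufaf3, which works with Ndufaf4 in assembly, had the largest difference at rest, -0.71 (-1.07 to -0.46), from 218 reads in ΔleftPAL and 153 in ΔIRIS cells, and -0.29 after LPS. Atp5o, the subunit that joins the head of ATP synthase to its outer stalk, had 964, 3919, 1034 and 3076 reads, and so -0.15 at rest and -0.47 after LPS. The only difference of like size in the other direction at rest was that of Ndufb2, 0.48, which was -0.08 with kallisto's counts and -0.32 with TPM.

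**Figure D5:**
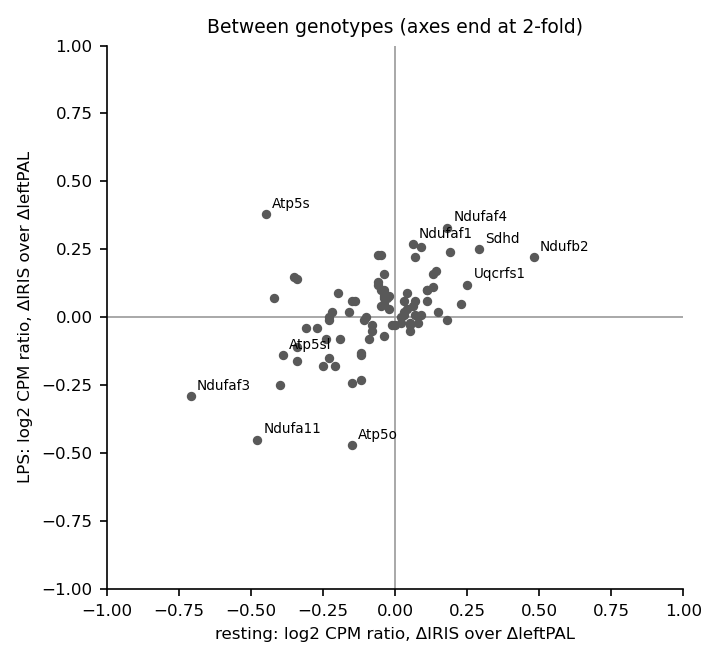
Log2 ratio of ΔIRIS over ΔleftPAL CPM at rest (x axis) and after LPS (y axis) for the 84 members, 1 library per group; both axes end at 2-fold. Members named are those chosen for their genotype difference or for a lower level after LPS. All points lie inside the 2-fold limits, and Ndufaf3 (-0.71 at rest) and Atp5o (-0.47 after LPS) lie farthest out to the left and to the bottom.

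The other genes of the respiratory chain, taken from lists outside the naming rule, were less uniform. Of 7 further nuclear genes for subunits and electron carriers, 4 were at least 2-fold higher in both genotypes, against the background of 17.3%. Cycs, the gene of cytochrome c, had 673, 3240, 884 and 3921 reads (log2 ratios 2.11 and 2.12), and Cyc1, the cytochrome c1 of complex III, had 720, 2457, 691 and 2897 (1.61 and 2.03). Gpd2, the mitochondrial glycerol-3-phosphate dehydrogenase that feeds ubiquinone, was lower after LPS, with 1033, 689, 1413 and 1002 reads (-0.71 and -0.50). Of 35 assembly factors outside the naming rule, 5 passed 2-fold in both genotypes (Uqcc2, Cox10, Cox19, Atpaf2 and Tmem70), a share of 14.3%. In both genotypes 30 of the 35 had ratios above 0, and the medians were 0.58 and 0.72. Among those that did not pass, Surf1, which helps build complex IV, had 465, 518, 559 and 597 reads (0.01 and 0.08), and the copper chaperone Cox17 had 215, 148, 463 and 196 (-0.63 and -1.19).

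Genes of the mitochondrial genome had lower median ratios than the members. Of 12 compared protein genes, 0 were at least 2-fold higher in both genotypes, where 17.3% of all genes were, a difference that a list this short can hardly show. The median log2 ratios of these genes were 0.52 in ΔleftPAL and -0.03 in ΔIRIS cells. Their reads were 0.565%, 0.725%, 0.861% and 0.778% of each library, so that the resting ΔleftPAL library stood lowest. The gene of the largest complex IV subunit, mt-Co1, had 87045, 117126, 153517 and 138117 reads (0.29 and -0.16), and mt-Nd1 of complex I had 17704, 34876, 35104 and 39320 (0.84 and 0.15). The 1 gene past 2-fold in ΔleftPAL cells was mt-Nd6, with 244, 887, 883 and 1343 reads (1.67 and 0.59). Reads of mt-Co2 numbered 74, 121, 112 and 128 and those of mt-Atp6 29, 49, 70 and 52, far under those of mt-Co1. How the counting of reads that also fit nuclear copies bears on these genes was not tested. Nuclear genes of the mitochondrial ribosome, which translates these RNAs, had values close to those of the members, with 52 of 76 (68.4%) at least 2-fold higher in both genotypes and medians of 1.18 and 1.29. Genes of the cytosolic ribosome had 14 of 84 (16.7%), near the 17.3% of all genes, and medians of 0.64 and 0.74.

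Regulators known for control of mitochondrial genes had median log2 ratios of 0.24 and 0.26, where those of all genes were 0.12 and 0.13. Of 12 compared, 0 passed 2-fold in both genotypes, against 17.3% of all genes, a difference that a list this short can hardly show. Nrf1 had 1136, 1727, 1304 and 1933 reads (log2 ratios 0.46 and 0.55), and Gabpa, an ETS factor, 1525, 2798, 2361 and 3592 (0.73 and 0.59). Tfam, which packages and transcribes mitochondrial DNA, had 1395, 1826, 1579 and 2322 reads (0.25 and 0.54). Values below 0 in both genotypes were found for Myc, with 2065, 1127, 2193 and 1223 reads (-1.01 and -0.85), and for the nuclear receptor gene Esrra, with 532, 329, 469 and 382 (-0.81 and -0.30). Ppargc1a, the gene of the coactivator PGC-1α, had 65, 17, 70 and 19 reads and was under the minimum.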

How the data were processed

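RNA was extracted from CD43- splenocytes with the miRNeasy kit, depleted of ribosomal RNA, made into TruSeq Stranded Total RNA libraries and read as paired 150-nt reads. The authors mapped the reads with STAR 2.4.0a to mm10, took genes from Ensembl release 77, and deposited read counts per gene name from featureCounts of Subread 1.4.6-p1 (primary alignments, multi-mapping reads included, strand setting 1), without normalization. The authors also deposited kallisto estimated counts and TPM values for 88198 transcripts, which were summed per gene here; kallisto 0.42.3 is named in the submitters' processing notes. Gene counts and kallisto counts of the members had a median ratio of 0.992 to 0.996. A row without a gene name (0.00876% to 0.0264% of reads) was left out of library sizes.

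Reads that also fit a processed pseudogene or a near copy were counted once, at the primary alignment, and may be split between copies. Counts were scaled with edgeR 4.0.16 (TMM, R 4.3.3) and ratios taken as log2(CPM + 0.5), which understates the change of low genes, in Python 3.11.15 (pandas 2.3.3, numpy 2.4.6, scipy 1.17.1, matplotlib 3.10.9). With 1 library per group no replicate test exists, a fit with the genotypes as replicates was not made, and no p-value is given. A gene is called when it is at least 2-fold apart. The code was checked on simulated data.

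The members, the other gene lists and the comparisons were chosen with earlier results of these data known. Members were named if they had the 3 highest or 2 lowest mean LPS ratios of their complex, were core or duplicated subunits, stood out between genotypes or were lower after LPS, or had tables that disagreed by more than 0.5; any other gene was named after its values were seen. RefSeq start windows on GRCm38.p6 were matched by symbol for 73 of 92 members; protein sequences were not used here. The values of 1 member are not reported here by name. Alternatives were library sizes from total counts or from DESeq2 1.42.0, TMM without immunoglobulin and mitochondrial genome genes, kallisto counts, TPM, minimum means of 10, 200, 1000 or none, a prior of 5 CPM, a 1.5-fold limit, and structural subunits alone.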

Additional observations from a re-analysis of the deposited data

Results flagged for a closer look

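Atp5s, the coupling factor of ATP synthase, was the only one of the 84 members compared whose level after LPS lay below the resting level in 1 genotype and above it in the other. It had 63 reads at rest and 54 after LPS in ΔleftPAL cells, and 51 and 81 reads in ΔIRIS cells. The log2 ratios were -0.30 and 0.53, a difference of 0.83 (ΔIRIS minus ΔleftPAL), the largest of the 84 members. With 1 library per group the difference was not tested, and the counting intervals of both ratios, -0.92 to 0.18 and 0.13 to 1.19, overlap.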

How the results depend on the processing

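The 6 counts of members were recomputed under 12 alternatives, and 69 of these 72 values were within 1.5 times the reported count. The number of members at least 2-fold higher after LPS in both genotypes ran from 41 with TPM to 76 with a 1.5-fold limit. With TPM, 40 of the 41 were among the 58 reported, and the share of all genes fell to 10.5%. TPM moved the median of all genes from 0.12 and 0.13 to -0.20 and -0.18, and relative to that median the members stood at 1.20 and 1.27, against 1.11 and 1.20 as reported. The 3 other values were 1 member apart between genotypes after LPS with TPM (Sdhc), 1 apart at rest with a 1.5-fold limit (Ndufaf3), and 0 lower after LPS among structural subunits alone, since Atp5sl is not one. With kallisto counts 66 members were higher in both genotypes, and all 58 reported were among them. Medians and ratios of named members were recomputed with the other library sizes, kallisto counts, TPM and a prior of 5 CPM. Of the medians, 72 stayed within the typical counting error of a member and 24 did not. Of the single ratios, 456 stayed within their counting interval and 204 did not, so sizes depend on the processing more than the counts of members do.

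No value past 2-fold changed its sign. With TPM, log2 ratios of LPS over resting of members named but not past 2-fold turned for Cox7a2l (0.23 to -0.01 and 0.16 to -0.10), Ndufaf3 in ΔleftPAL cells (0.18 to -0.35) and Sdha in ΔIRIS cells (0.84 to -0.10). That of Ndufaf5 in ΔIRIS cells (0.32) also turned, as it had 12.5 TPM at rest and 12 TPM after LPS. Of the genotype differences given above, that of Ndufb2 at rest turned from 0.48 to -0.08 with kallisto counts and to -0.32 with TPM. Among those not given, that of Ndufa12 after LPS turned from -0.11 to 0.38 with kallisto counts. The order of complexes IV and V also turned in TPM, with medians of 1.27 and 1.23 for ΔleftPAL and of 1.31 and 1.18 for ΔIRIS. For each of these changes the cause was not tested. No paired analysis was made: the labels give no replicate numbers, and a fit that pairs the libraries by genotype was not run. With 1 library per group no replicate could be left out. Members with few reads, such as Atp5s, have wide counting intervals.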

Other observations

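Enzymes and carriers that supply the respiratory chain were measured in the same libraries. Of 13 genes of the tricarboxylic acid cycle, 6 (46.2%) were at least 2-fold higher after LPS in both genotypes, against 17.3% of all genes, and all 13 were above 0 in both. Idh3a, the catalytic subunit of NAD-dependent isocitrate dehydrogenase, had 531, 2315, 734 and 2996 reads and log2 ratios of 1.96 and 2.00. Its partner subunit Idh3g had 1737, 2524, 1838 and 2632 reads and ratios of 0.40 and 0.50. Citrate synthase (Cs) had 2419, 6962, 2923 and 8102 reads (1.38 and 1.45), and Ogdh, which oxidises 2-oxoglutarate, had 2409, 3539, 3044 and 3787 (0.41 and 0.30).

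Of 6 carriers and pores for ATP, ADP and phosphate, 5 (83.3%) were at least 2-fold higher in both genotypes, against the same 17.3%. The ADP/ATP carriers Slc25a4 and Slc25a5 had log2 ratios of 1.88 and 2.10, and of 1.71 and 1.68. Slc25a3, which brings phosphate and copper into mitochondria, had 4521, 7600, 6406 and 8679 reads and ratios of 0.61 and 0.43.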
